A study of Mus musculus with 79 samples.

Results

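Ligands, receptors and extracellular inhibitors of the BMP and activin pathways were followed in mouse bone and fat, as the 10 genes *Acvr1c*, *Bmpr1a*, *Inhba*, *Inhbb*, *Bmp2*, *Bmp4*, *Bmp6*, *Gdf10*, *Fst* and *Grem1*, of 39063 rows with a gene ID in the deposited tables. They were chosen by gene symbol, with the fall of *Acvr1c* and the rise of *Bmp4* in leptin-treated caudal vertebrae already known, so the values of that comparison are given as a description without a p-value. All 10 passed the filter on low values, which kept the 14873 genes that averaged 0.4 TPM or more. TPM is a transcript level scaled by length and library total, so levels can be compared between genes.

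RNA came from 79 libraries of 51 mice aged 4 to 5 months. Caudal vertebrae (CV), whose marrow is rich in stable marrow fat, were sequenced from all 51 mice, lumbar vertebrae (LV), which have little such fat, from 18 females, and inguinal white adipose tissue (iWAT) from 10 female WT mice. WT mice were BMAd-Pnpla2+/+, and cKO mice (KO in the sample labels, BMAd-Pnpla2-/-) had lost *Pnpla2*, the gene of the lipase ATGL, in bone marrow adipocytes. Both genotypes were littermates on a mixed SJL and C57BL/6 background. All mice received an intracerebroventricular (ICV) infusion for 9 days, either PBS or leptin at 100 ng per h, with food intake matched between the infusions. Of the male WT mice, 5 with PBS and 6 with leptin also carried a subcutaneous insulin pellet. Their mouse numbers belong to series that no other mice share, so insulin and the series of mice cannot be told apart.

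BMPs and activins are secreted dimers of the TGF-beta family. They bring together type II and type I serine/threonine kinase receptors, and the type I receptor then phosphorylates SMAD proteins that enter the nucleus. *Bmpr1a* encodes the type I receptor ALK3, which binds BMP2 and BMP4. *Acvr1c* encodes the type I receptor ALK7, which is enriched in adipocytes, where its activity is known to restrain lipolysis. *Inhba* and *Inhbb* encode the subunits of activins A and B. *Gdf10* encodes a BMP3-like ligand (BMP3B), *Fst* encodes follistatin, which traps activins, and *Grem1* encodes gremlin 1, which traps BMP2 and BMP4. In bone, BMPs are known for inducing bone formation, and BMP4 is also known to commit precursor cells to the adipocyte lineage.

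The sequences just upstream of 4 genes described in the leptin results are shown, and no link between sequence and leptin was tested. They are the bases before the outermost annotated end of each gene, read 5′ to 3′ along the gene's strand, from the RefSeq promoter table of build GRCm38.p6. Capitals mark matches to an E-box (CACGTG) or a SMAD box (CAGAC, either strand).
Acvr1c, chr2:58357897-58358008, minus strand: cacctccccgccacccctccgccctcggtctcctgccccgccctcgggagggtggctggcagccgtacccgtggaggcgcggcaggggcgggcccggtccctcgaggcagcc
Bmp4, chr14:46390670-46390919, minus strand: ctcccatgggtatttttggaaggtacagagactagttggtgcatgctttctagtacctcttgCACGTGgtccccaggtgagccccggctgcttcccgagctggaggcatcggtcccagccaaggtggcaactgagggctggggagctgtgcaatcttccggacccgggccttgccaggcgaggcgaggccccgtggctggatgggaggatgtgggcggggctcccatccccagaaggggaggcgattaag
Inhbb, chr1:119422249-119422498, minus strand: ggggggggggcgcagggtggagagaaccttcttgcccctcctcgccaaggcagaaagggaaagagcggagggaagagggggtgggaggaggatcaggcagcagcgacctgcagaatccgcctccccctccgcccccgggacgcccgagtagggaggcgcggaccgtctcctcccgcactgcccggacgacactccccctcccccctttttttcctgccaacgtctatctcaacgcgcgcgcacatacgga
Gdf10, chr14:33923337-33923586, plus strand: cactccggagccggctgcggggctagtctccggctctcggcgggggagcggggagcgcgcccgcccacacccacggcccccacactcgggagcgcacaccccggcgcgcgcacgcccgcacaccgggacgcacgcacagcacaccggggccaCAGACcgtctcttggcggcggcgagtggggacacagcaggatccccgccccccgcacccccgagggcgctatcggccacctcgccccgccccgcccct
The table held promoter windows for 8 of the 10 genes, 9 windows in all because *Acvr1c* has 2 annotated starts, each running from 250 bases before to 50 bases after the start. On both strands of these 9 windows, the E-box was found in 2 (*Bmp4* and *Bmp6*) against 7.15% of all 32851 windows of 300 bases. The BMP-responsive SMAD motif GGCGCC was found in 3 (*Grem1*, *Gdf10* and *Bmpr1a*) against 11.9%. CAGAC was found in 3 (*Grem1*, *Bmp6* and *Gdf10*) against 49.6%. The palindromic SMAD box GTCTAGAC, the cAMP response element TGACGTCA and the forkhead motif GTAAACA were in none of the 9, against 0.213%, 1.79% and 3.65% of all windows. Both *Acvr1c* windows and those of *Inhbb* and *Inhba* held none of the 6 motifs. None of these motifs overlapped another in the 9 windows. A match describes these letters and does not show that a factor binds.

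On GRCm38.p6, *Acvr1c* lies on chromosome 2 from 58267453 to 58357896 and *Bmpr1a* on chromosome 14 from 34411061 to 34503336. *Inhbb* lies on chromosome 1 from 119415463 to 119422248 and *Inhba* on chromosome 13 from 16004256 to 16031609. *Bmp2* lies on chromosome 2 from 133552159 to 133562896, *Bmp4* on chromosome 14 from 46383525 to 46390669, *Bmp6* on chromosome 13 from 38345716 to 38500314 and *Gdf10* on chromosome 14 from 33923587 to 33936514. *Fst* lies on chromosome 13 from 114452262 to 114458989 and *Grem1* on chromosome 2 from 113748675 to 113758648.

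CV and iWAT libraries held 16100377 to 19364106 counts and LV libraries 28717516 to 29757254. In female WT mice with PBS, the summed TPM of 6 adipocyte markers was 257 to 446 in LV, 6353 to 8496 in CV and 44203 to 60114 in iWAT, the order the tissue labels imply. CV also held 17392 to 38157 TPM of 6 skeletal muscle markers, against 755 to 2559 TPM in LV and 27.9 to 2442 TPM in iWAT. In iWAT of these mice, 2 of 6 osteoblast and osteocyte markers were listed at 0 in all 5 libraries. *Pnpla2* was at 217 to 288 TPM in female WT CV and 131 to 256 TPM in female cKO CV with PBS, and at 191 to 294 and 135 to 209 TPM in males. The genotypes overlapped in both sexes, in a tissue where only the adipocytes carry the deletion. In bulk tissue, fewer cells of a type and less RNA per cell cannot be told apart.

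**Figure D1:**
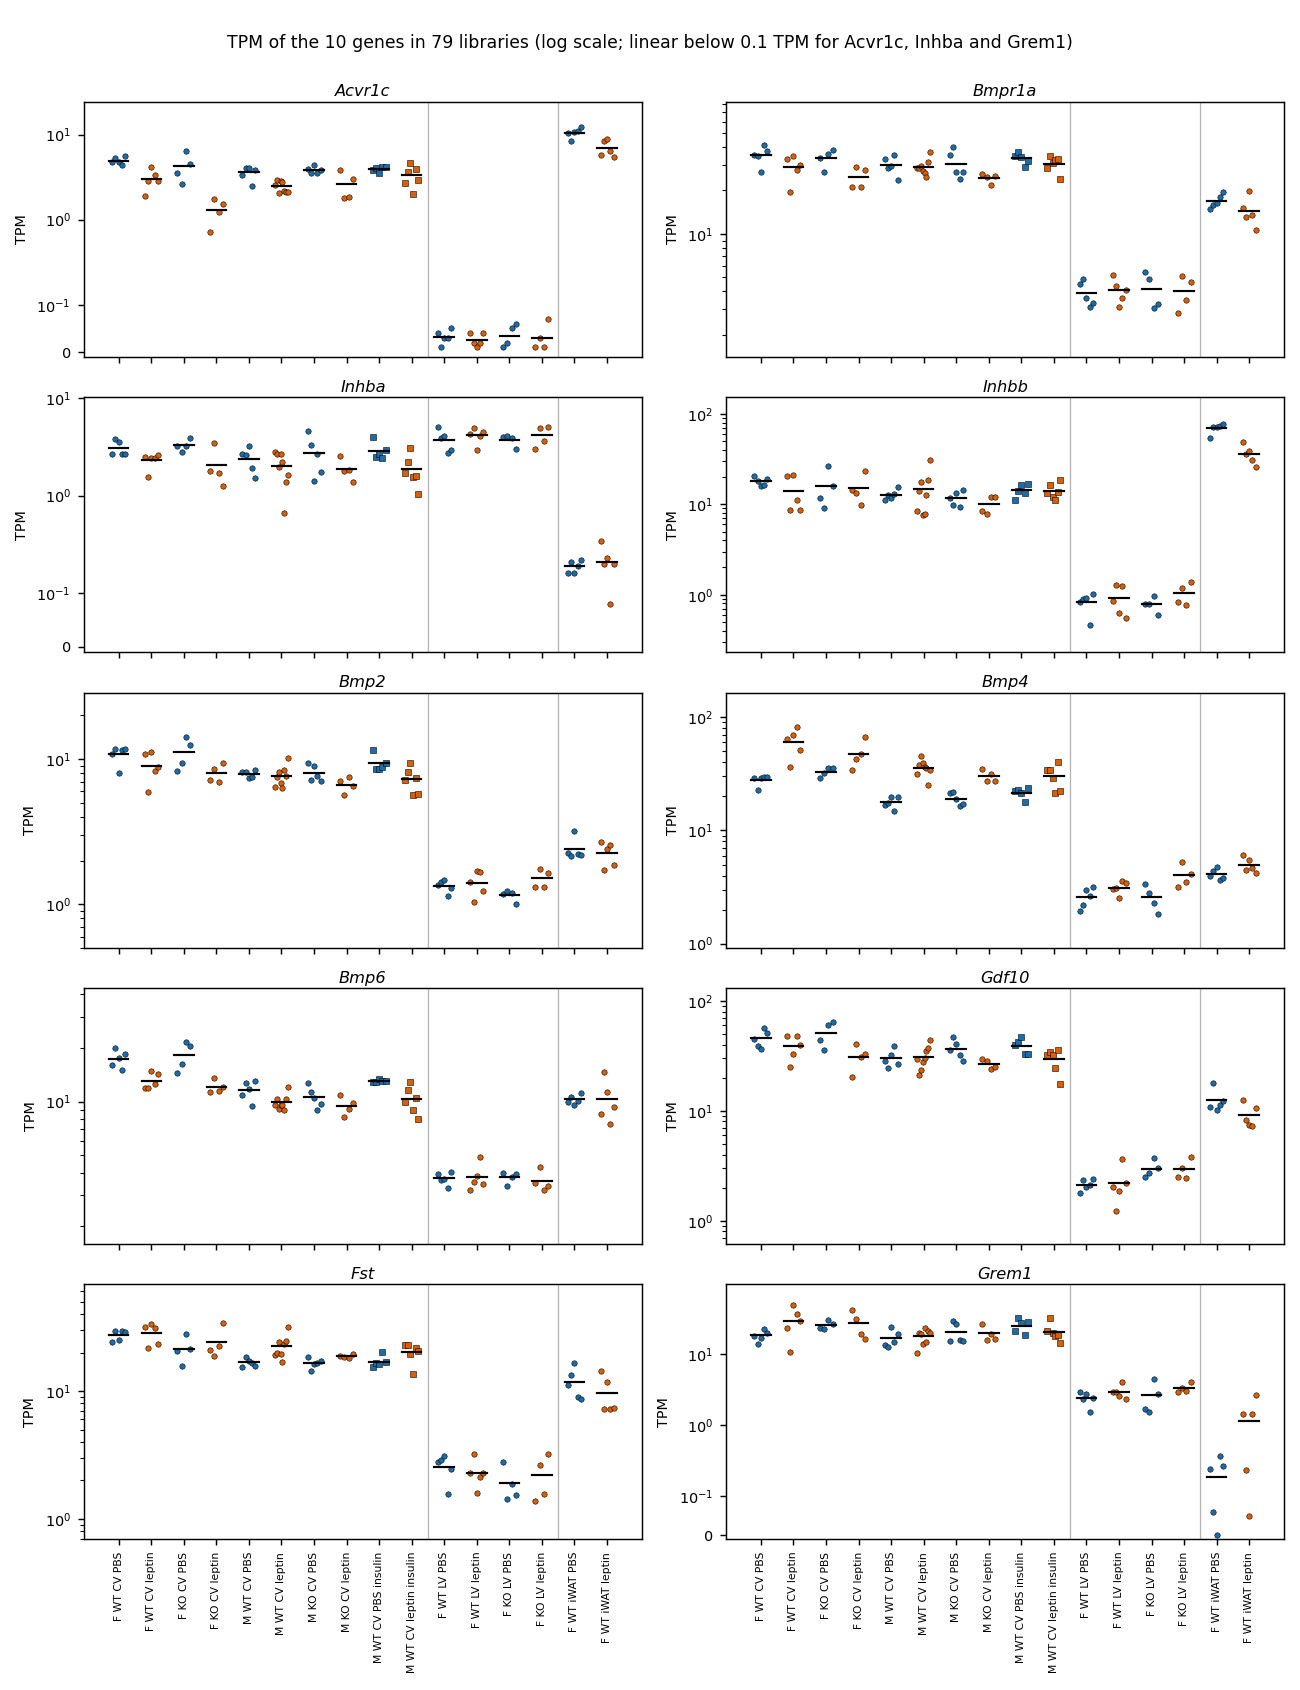
TPM of each gene (y axes, log scale, linear below 0.1 TPM for Acvr1c, Inhba and Grem1) in the 16 groups (x axes, F female, M male), with 1 point per library, bars at group means, PBS in blue, leptin in orange and insulin pellets as squares. Vertical lines separate CV, LV and iWAT. Acvr1c lay at 0.01 to 0.07 TPM in all LV groups, and Bmp4 was at 14.9 TPM or more in every CV library.

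The first question was where each gene is expressed without leptin. In female WT mice with PBS, all 10 genes differed between CV and LV, with 9 higher in CV and *Inhba* lower. Against iWAT, 8 were higher in CV, and *Acvr1c* and *Inhbb* were lower. In that test a gene was called changed when its adjusted p-value from edgeR was below 0.05 and its log2 fold change was 0.5 or more in either direction, a rule that 66.3% of all tested genes met between CV and LV, 50.9% between CV and iWAT and 67.1% between iWAT and LV. Their median log2 fold change was 2.21 between CV and LV, where that of all tested genes was 0.02. Between CV and iWAT it was 1.36 against -0.01, and between iWAT and LV 0.88 against -0.01. The 3 tissues came from the same mice, and each mouse as a block changed none of these counts.

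The receptor *Acvr1c* had the same order of tissues as the adipocyte markers. Its TPM in the 5 mice were 0.04, 0.01, 0.03, 0.03 and 0.05 in LV, 4.78, 5.25, 4.70, 4.33 and 5.57 in CV, and 10.5, 8.34, 10.7, 10.9 and 12.2 in iWAT. The 3 tissues did not overlap, and each mouse had the same order. The LV values rest on 4 to 15 counts per library. The log2 fold change was 6.15 (standard error, SE, 0.179) in CV against LV and -1.26 (SE 0.116) in CV against iWAT, with edgeR adjusted p = 6.57e-14 and 8.16e-08. *Inhbb*, the activin B subunit, had the same order, with means of 0.826 ± 0.214, 18.0 ± 1.86 and 69.3 ± 8.43 TPM (SD, n = 5 each) in LV, CV and iWAT. It was the most abundant of the 10 genes in iWAT.

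*Inhba*, the activin A subunit, had another order. It was at 5.13, 3.91, 4.06, 2.75 and 2.93 TPM in LV and at 2.65, 3.80, 3.53, 2.68 and 2.67 TPM in CV, which overlapped, but at only 0.16 to 0.22 TPM in iWAT. Its log2 fold change was 3.80 (SE 0.198, edgeR adjusted p = 1.04e-10) in CV against iWAT. In CV against LV it was -1.35 (edgeR adjusted p = 2.81e-07) after TMM scaling and -0.27 (limma adjusted p = 0.157) on the log2(TPM + 0.1) scale. That difference follows from the scaling: TPM moved the median log2 fold change of all genes to 1.08 in CV against LV, to 0.88 in iWAT against LV and to 0.16 in CV against iWAT. The fold changes given here are after TMM, that is, relative to most genes. Of the genes called, 5157 rose and 4699 fell in CV against LV after TMM, and 10312 and 1652 on the TPM scale. The counts were 3812 and 3754 against 4796 and 2930 in CV against iWAT, and 5084 and 4893 against 9223 and 2285 in iWAT against LV.

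The BMP ligands were highest in CV. *Bmp4* was at 28.9, 23.0, 28.9, 29.7 and 29.7 TPM in CV, against 1.96 to 3.18 TPM in LV and 3.64 to 4.79 TPM in iWAT. *Bmp2* was at 10.8 ± 1.59 TPM (SD, n = 5) in CV, 1.34 ± 0.130 in LV and 2.41 ± 0.456 in iWAT. For both, CV lay above the other tissues in every mouse. Between iWAT and LV, neither passed the test after TMM, with log2 fold changes of -0.08 for *Bmp2* (edgeR adjusted p = 0.552) and -0.27 for *Bmp4* (edgeR adjusted p = 0.0916). On the TPM scale both turned, to 0.79 and 0.66 (adjusted p = 4.99e-05 and 0.000181 from limma), less than the shift of all genes. *Bmp6* was at 3.27 to 4.04 TPM in LV, 9.58 to 11.2 TPM in iWAT and 15.1 to 20 TPM in CV. *Gdf10* was the most abundant of the 10 genes in CV, at 45.7 ± 8.36 TPM (SD, n = 5), with 12.5 ± 3.20 in iWAT and 2.13 ± 0.257 in LV.

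The receptor *Bmpr1a* and the inhibitor *Fst* had the order of *Bmp6*. *Bmpr1a* was at 35.2 ± 5.27 TPM (SD, n = 5) in CV, 17.0 ± 1.81 in iWAT and 3.88 ± 0.772 in LV. *Fst* was at 27.5 ± 2.67, 11.7 ± 3.27 and 2.56 ± 0.602 TPM (SD, n = 5) in the same tissues. *Grem1* was at 17.9, 13.8, 17.0, 22.2 and 19.9 TPM in CV, at 1.52 to 2.89 TPM in LV and at 0.24, 0.06, 0, 0.37 and 0.26 TPM in iWAT, or 0 to 6 counts per library. Its log2 fold change in CV against iWAT was 6.41 (SE 0.321, edgeR adjusted p = 6.91e-11). By their mean TPM, the 10 genes stood in CV in the order *Gdf10*, *Bmpr1a*, *Bmp4*, *Fst*, *Grem1*, *Inhbb*, *Bmp6*, *Bmp2*, *Acvr1c* and *Inhba*. Neighbours overlapped from *Gdf10* to *Bmpr1a* to *Bmp4* to *Fst*, and among *Grem1*, *Inhbb* and *Bmp6*. Muscle, cartilage and tendon markers were higher in CV too, with 4 tendon markers summing to 731 to 1138 TPM in CV, 24.3 to 35.6 TPM in LV and 10.5 to 15.9 TPM in iWAT, and 3 of 4 stroma and all 5 endothelial markers were higher in CV than in LV. Neutrophil and erythroid markers were higher in LV. Sums of 4 B lineage markers overlapped, at 217 to 344 TPM in LV and 198 to 318 TPM in CV. Of these 4, 2 were called lower in CV. The 4 neutrophil markers summed to 138001 to 169044 TPM in LV, 1880 to 10257 TPM in CV and at most 447 TPM in iWAT, and the 4 erythroid markers to 1442 to 1697, 13.1 to 44.5 and 8.33 to 13.1 TPM. The part of these lists in the tissue differences was not tested.

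**Figure D2:**
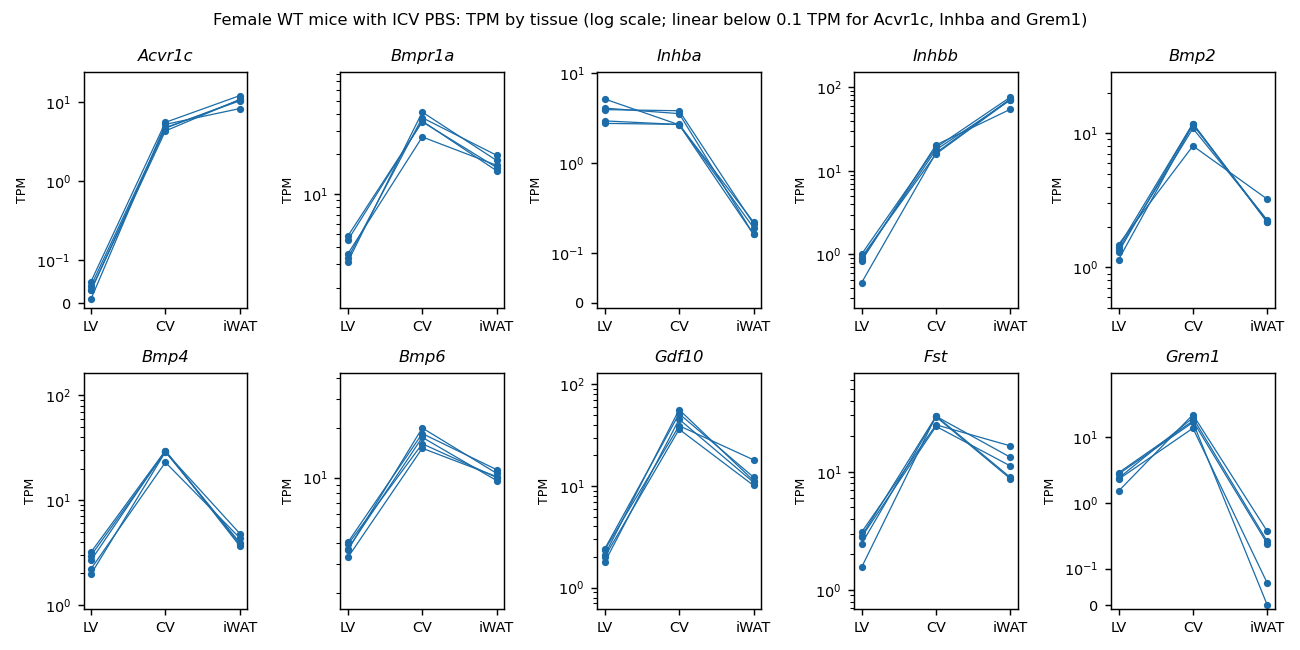
TPM of each gene (y axes, log scale, linear below 0.1 TPM for Acvr1c, Inhba and Grem1) in LV, CV and iWAT (x axes) of the 5 female WT mice with PBS, with 1 line per mouse. Acvr1c and Inhbb rise from LV to CV to iWAT in every mouse, while Grem1 and Inhba are lowest in iWAT.

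Other genes of the pathway were read from lists of 80 symbols, of which 70 were tested. In CV against LV, 60 were higher and 3 lower, where 66.3% of all genes were called, with a median log2 fold change of 1.78 against 0.02 for all genes. All 14 tested extracellular antagonists were higher in CV, with the largest fold changes for *Nbl1* at 458 against 12.9 TPM (log2 fold change 4.04) and *Kcp* (3.61). All 5 type II receptors were higher too, with *Acvr2b* at 2.17 and *Acvr2a*, an activin receptor, at 2.10. Of 12 other BMP, GDF and activin ligands, 9 were higher, led by *Bmp5* (3.21, 33.8 against 1.70 TPM) and *Mstn*, the muscle ligand myostatin (3.12), and *Gdf3* was lower (-4.51). *Bmpr1b* (4.09) and *Acvr1* (1.78) were the type I receptors that differed, of 5. Among 8 BMP target genes, 6 were higher, led by *Msx2* (5.16) and *Msx1* (3.02), and *Id2* was lower (-1.0) after TMM but not on the TPM scale, where its means were 61.6 and 56.6 TPM. *Tgfb1* was lower after TMM (-1.17), with means of 79.9 TPM in CV and 82.5 TPM in LV.

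In CV against iWAT, 41 of the 70 were higher and 3 lower, where 50.9% of all genes were called, with a median of 0.64 against -0.01. Of the 14 antagonists 12 were higher in CV and none lower, with the osteocyte product *Sost* at 81.2 against 0.088 TPM (log2 fold change 9.67) and *Nog*, noggin, at 10.6 against 0.388 TPM (4.57). *Bmp5* (6.77) and *Bmp8a* (4.38) led the ligands, of which 7 of 12 were higher. The iron-regulating BMP co-receptor *Hjv*, also expressed in muscle, was at 140 TPM in CV and 4.52 TPM in iWAT. The 3 genes higher in iWAT were *Msx2* (-3.09) and *Hey1* (-1.71), BMP target genes, and the receptor *Amhr2* (-0.84). In iWAT against LV, 36 of the 70 were higher and 14 lower, where 67.1% of all genes were called, and the median was 0.65 against -0.01. Among them were *Msx2* (8.25), *Hey1* (3.47) and the co-receptor *Rgma* (2.97), which were higher, and *Sost* (-7.87), *Gdf3* (-4.51) and *Bmp5* (-3.56), which were lower. *Ccn2* and *Tgfbi* were among the 14 after TMM but were higher in iWAT on the TPM scale.

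The next question was what ICV leptin did to these genes. In CV of WT mice, the comparison that chose the genes, *Acvr1c* was lower and *Bmp4* higher with leptin in both sexes. In females *Acvr1c* was at 4.78, 5.25, 4.70, 4.33 and 5.57 TPM with PBS and at 1.91, 2.82, 4.10, 3.31 and 2.82 TPM with leptin, without overlap. The log2 fold change was -0.74 (SE 0.156). In males it was at 3.39, 4.09, 4.05, 2.50 and 3.88 TPM with PBS, and 8 mice with leptin ranged from 2.06 to 2.92 TPM with a median of 2.38, a log2 fold change of -0.59 (SE 0.123). The male groups overlapped through the PBS mouse at 2.50 TPM.

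*Bmp4* in female WT CV was at 23.0 to 29.7 TPM with PBS and at 64.4, 36.5, 70.0, 82.2 and 51.2 TPM with leptin, a log2 fold change of 1.06 (SE 0.143). In males it was at 16.8, 17.4, 19.7, 14.9 and 19.8 TPM with PBS and at 25.2 to 45.7 TPM (median 36.0, n = 8) with leptin, a log2 fold change of 0.96 (SE 0.114). Every leptin mouse lay above every PBS mouse of its sex. The labels' mouse numbers fall into series. Within the 100s and 600s series of mouse numbers, the differences of mean log2(TPM + 0.1) of *Bmp4* were 0.86 and 1.16 for females, and 1.08 and 0.86 for males. For *Acvr1c* females had -1.05 and -0.53, and males had -0.53 and -0.52. The call of *Acvr1c* ended without female PBS replicate 1 or 2, or without male PBS replicate 2 or 5, where its log2 fold change was -0.73, -0.72, -0.53 and -0.56. In these contrasts *Acvr1c* and *Bmp4* met the rule for a call in each sex, a count that the choice of the genes fixed. The shares of all genes called, 5.04% in females and 1.75% in males, are therefore no measure for that count.

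The other 8 genes had smaller differences in WT CV. In females *Grem1* went from 13.8 to 22.2 TPM with PBS to 23.0, 10.7, 48.2, 36.1 and 29.1 TPM with leptin, a log2 fold change of 0.63 (SE 0.267), and was 0.83 and met the rule without leptin replicate 2. In males it was at 16.8 ± 4.86 (SD, n = 5) against 17.7 ± 4.34 TPM (SD, n = 8). In females 3841 of all 14873 genes had an unadjusted p below 0.05 (edgeR). There *Bmp6* was at 15.1 to 20 TPM with PBS and 11.9 to 14.9 TPM with leptin (log2 fold change -0.44). *Inhba* was at 2.65 to 3.8 and 1.54 to 2.6 TPM (-0.45). In males both overlapped, *Bmp6* at 9.44 to 13 TPM with PBS and 8.93 to 12 TPM with leptin (-0.27) and *Inhba* at 1.52 to 3.22 and 0.66 to 2.83 TPM (-0.31). *Inhbb* spread widely with leptin, at 20.7, 8.69, 21.0, 11.1 and 8.59 TPM in females against 16 to 20.5 TPM with PBS, and at 7.68 to 31.1 TPM in males against 11.2 to 15.3 TPM, with log2 fold changes of -0.41 and 0.15. *Fst* had log2 fold changes of 0.00 in females and 0.37 in males, *Bmp2* of -0.30 and -0.09, *Gdf10* of -0.26 and 0.00, and *Bmpr1a* of -0.31 and -0.10.

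Other cell markers moved in these groups. The summed TPM of the adipocyte markers was 6353 to 8496 with PBS and 3769 to 6906 with leptin in females, and 4175 to 6872 and 3732 to 6433 in males, and 2 of 6 fell in each sex. In females, 3 of 6 osteoblast and osteocyte markers and 2 of 4 osteoclast markers rose, and the first list summed to 2367 to 6415 TPM with PBS and 5311 to 16074 TPM with leptin. In males none of either list was called. There the osteoblast and osteocyte list summed to 779 to 1976 TPM with PBS (median 1750) and 1083 to 2550 TPM with leptin (median 1178). Its median log2 fold change was -0.285 in males, against 0.905 in females. The 4 marrow stroma markers summed to 771 to 1316 TPM with PBS and 1312 to 1915 TPM with leptin in males, where 1 rose, and to 919 to 1312 and 1114 to 2015 TPM in females, where none was called. The 4 erythroid markers summed to 8.01 to 21.3 TPM and 27.1 to 66.8 TPM in males, with 1 called higher, and to 13.1 to 44.5 and 34.2 to 170 TPM in females, with 1 called higher and 1 lower. Their median log2 fold change was negative, at -0.74 in males and -0.67 in females. In each sex only 1 of the 4 averaged at least 1 TPM with leptin. The part of these lists in the values of *Acvr1c* and *Bmp4* was not tested. With the muscle marker level of each library as a covariate, the log2 fold changes in females were -0.70 and 0.97, and those in males -0.50 and 0.98. Of the 70 other pathway genes, *Eng*, an endothelial co-receptor for TGF-beta family ligands, rose in both sexes, by 0.55 in each. In females *Tgfb1* rose from 79.9 ± 4.60 to 119 ± 9.93 TPM (SD, n = 5 each), and *Pmepa1*, a target and inhibitor of activin and TGF-beta signalling, was at 37.4 ± 4.13 TPM with PBS and fell to 26.9 ± 4.00.

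In cKO CV, fitted over both sexes with sex as a covariate, 1 of the 8 members other than *Acvr1c* and *Bmp4* was called (*Gdf10*), where 2.01% of all genes were. *Acvr1c* and *Bmp4* met the rule too, in the tissue and contrast for which they were chosen, and their values are a description. *Acvr1c* was at 3.52, 2.64, 6.38 and 4.54 TPM in cKO females with PBS and at 0.71, 1.74, 1.24 and 1.53 TPM with leptin, without overlap. In cKO males it was at 3.93, 3.52, 4.37, 3.52 and 3.85 TPM and at 3.88, 1.78, 1.87 and 2.99 TPM, where 1 leptin mouse lay among those with PBS. *Bmp4* was at 29.1, 32.0, 35.4 and 35.4 TPM against 34.0, 42.5, 46.9 and 67.5 TPM in females, and at 21.3, 21.9, 18.8, 16.3 and 17.0 TPM against 35.1, 27.6, 31.5 and 27.4 TPM in males. The log2 fold changes were -1.03 (SE 0.228) for *Acvr1c* and 0.68 (SE 0.124) for *Bmp4*, given without a p-value because CV was the tissue that chose them. With each sex alone they were -1.60 and -0.53 for *Acvr1c* and 0.66 and 0.72 for *Bmp4* in females and males. Within series of mouse numbers, the difference of mean log2(TPM + 0.1) of *Acvr1c* was 0.06 in males of the 100s (1 leptin and 2 PBS mice) and -1.09 in those of the 5400s (1 and 3), and -1.32 and -1.99 in females. That of *Bmp4* was 0.70 and 0.67 in males and 0.42 and 0.93 in females. In the 600s series, cKO males had only leptin and cKO females only PBS, so leptin and series are partly mixed. The difference of the leptin effects between cKO males and females was tested for the other genes, and none of them met an adjusted p-value below 0.05 (edgeR). Of all genes 0 did and 529 had an unadjusted p below 0.05. No such test by another tool was run.

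*Gdf10* in cKO CV was at 43.8, 35.5, 60.7 and 64.8 TPM with PBS and 20.3, 40.8, 30.7 and 32.8 TPM with leptin in females, and at 35.5, 46.9, 40.2, 32.1 and 28.4 TPM and 29.7, 28.4, 24.2 and 24.9 TPM in males. The log2 fold change was -0.51 (SE 0.135, edgeR adjusted p = 0.0438), and the groups overlapped in both sexes. This call was lost when any 1 of 11 of the 17 libraries was left out, with adjusted p from 0.0412 to 0.102. The 11 were female PBS replicates 1, 3 and 4, female leptin replicates 1 and 3, male PBS replicates 2, 3 and 4, and male leptin replicates 1, 3 and 4. Without female leptin replicate 1 the log2 fold change was -0.43. It was lost too with the muscle marker level as a covariate (edgeR adjusted p = 0.0549) and in either sex alone (adjusted p = 0.383 in females and 0.238 in males, edgeR).

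Of the other members in cKO CV, *Inhba* had a log2 fold change of -0.55 (edgeR adjusted p = 0.113), and *Bmp6* and *Bmpr1a* had -0.31 each (adjusted p = 0.0573 and 0.0656 from edgeR). *Inhba* was called, at -0.67 with adjusted p = 0.0382 (edgeR), when female leptin replicate 2 was left out, and at -0.60 with adjusted p = 0.0434 (edgeR) with the series of mouse numbers in the fit. *Grem1* was at 0.03, *Inhbb* at -0.07, *Fst* at 0.25 and *Bmp2* at -0.30, none past the threshold. Adipocyte markers summed to 4792 to 7561 TPM with PBS and 3658 to 5390 TPM with leptin in cKO females, and to 4567 to 7100 and 4144 to 5248 TPM in cKO males, and 3 of 6 fell. Their part in these values was not tested. Of the other pathway genes, the joint ligand *Gdf5* fell from 1.35 ± 0.521 to 0.559 ± 0.431 TPM (SD, n = 9 and 8), and *Chrdl2*, a chordin-like BMP antagonist, from 2.83 ± 1.18 to 0.959 ± 0.372 TPM.

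In LV no member was called with leptin, over both genotypes with genotype as a covariate, where 1.11% of all genes were. At an unadjusted p below 0.05 (edgeR) there were 3204 of all 14873 genes and 1 member, *Bmp4*. It was at 1.96, 2.20, 2.95, 2.65 and 3.18 TPM with PBS and 3.02, 3.11, 2.52, 3.61 and 3.40 TPM with leptin in WT mice, and at 3.35, 2.82, 2.30 and 1.83 TPM and 3.14, 5.30, 3.49 and 4.10 TPM in cKO mice. The groups overlapped in both genotypes, and the log2 fold change was 0.33 (SE 0.124, adjusted p = 0.129 from edgeR and 0.0713 from DESeq2). Within the series of mouse numbers its differences of mean log2(TPM + 0.1) were 0.38 and 0.11 in WT and 0.33 and 0.81 in cKO mice. *Acvr1c* rested on 2 to 21 counts per LV library, and a change in it was not detectable at this depth. Among the other pathway genes *Sost* was at 9.50 ± 2.10 TPM with PBS and fell to 7.11 ± 2.29 TPM with leptin (SD, n = 9 each).

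In iWAT *Inhbb* fell with leptin. It was at 54.7, 70.8, 71.4, 72.9 and 76.5 TPM with PBS and at 48.4, 35.7, 38.8, 31.2 and 26.1 TPM with leptin, and all 5 leptin mice lay below all 5 PBS mice. The log2 fold change was -0.86 (SE 0.149, edgeR adjusted p = 0.00258), and leaving out each library in turn gave -0.99 to -0.77. It was -0.65 among mice of the 100s and -1.24 among those of the 600s, as differences of mean log2(TPM + 0.1) over 2 or 3 mice a side. This was the 1 call among the 10 members, where 15.1% of all genes were called. In LV of the same mice *Inhbb* was at 0.46 to 1.01 TPM with PBS and 0.55 to 1.28 TPM with leptin. In their CV it was at 16 to 20.5 TPM with PBS and 8.59 to 21 TPM with leptin, and iWAT against CV was not tested. The leptin effect in iWAT minus that in LV was -0.98 in log2 units (SE 0.280, adjusted p = 0.0190 from an edgeR interaction test), a test that called 12.9% of all genes. It was chosen after the values were seen, and it held no term for the mouse although both tissues came from the same mice.

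*Acvr1c* in iWAT was at 10.5, 8.34, 10.7, 10.9 and 12.2 TPM with PBS and at 5.70, 8.32, 8.96, 6.45 and 5.47 TPM with leptin, with overlap through 1 PBS mouse. The log2 fold change of -0.49 (SE 0.154, edgeR adjusted p = 0.0379) fell just short of the fold limit of 0.5. It passed, at -0.58 (edgeR adjusted p = 0.0300), without that mouse, PBS replicate 2, and likewise without leptin replicate 2 (-0.55) or 3 (-0.63). With all libraries it was called under 5 of 8 alternatives, which were RLE size factors, DESeq2, limma on either TPM scale, and the series of mouse numbers in the fit (-0.52, edgeR adjusted p = 0.0298). *Grem1* was at 0.24, 0.06, 0, 0.37 and 0.26 TPM with PBS, or 0 to 6 counts, and at 1.43, 0.23, 0.05, 1.43 and 2.61 TPM with leptin, or 1 to 50 counts. Its log2 fold change of 2.71 (SE 0.931) had an adjusted p = 0.0532 from edgeR. It was called without leptin replicate 2 (2.97, adjusted p = 0.0334, edgeR) or 3 (2.98, adjusted p = 0.0151, edgeR). It was also called with DESeq2 (adjusted p = 0.0218) or the replicate number as a block (edgeR adjusted p = 0.00714). Same-numbered leptin and PBS libraries come from different mice, so that block is no pairing of the design. *Bmp4* was at 3.64 to 4.79 TPM with PBS and 4.23 to 6.02 TPM with leptin, a log2 fold change of 0.36 (edgeR adjusted p = 0.0735).

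The adipocyte markers of iWAT summed to 44203 to 60114 TPM with PBS and to 15766 to 37759 TPM with leptin, without overlap, and 2 of 6 were called lower. The 4 marrow stroma markers summed to at most 201 TPM with PBS and at least 246 TPM with leptin, with 2 called higher and 1 lower, and the 4 erythroid markers to 8.33 to 13.1 and 1.62 to 6.33 TPM, with 2 called lower. The part of these lists in the values of *Inhbb* and *Acvr1c* was not tested. Of the 70 other pathway genes, 4 rose and 5 fell in iWAT with leptin, where 15.1% of all genes were called. Those that rose were the BMP targets *Id2*, from 50.5 ± 4.93 to 83.4 ± 6.17 TPM (SD, n = 5 each), and *Atoh8*, the decoy receptor *Bambi* and *Tgfb2*. Those that fell were *Bmp3*, with a log2 fold change of -1.26, *Fstl3*, a follistatin-like activin trap (-1.06), *Bmper* (-0.78), *Amhr2* (-1.31) and *Pmepa1*, from 44.8 ± 9.57 to 24.1 ± 3.59 TPM.

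**Figure D3:**
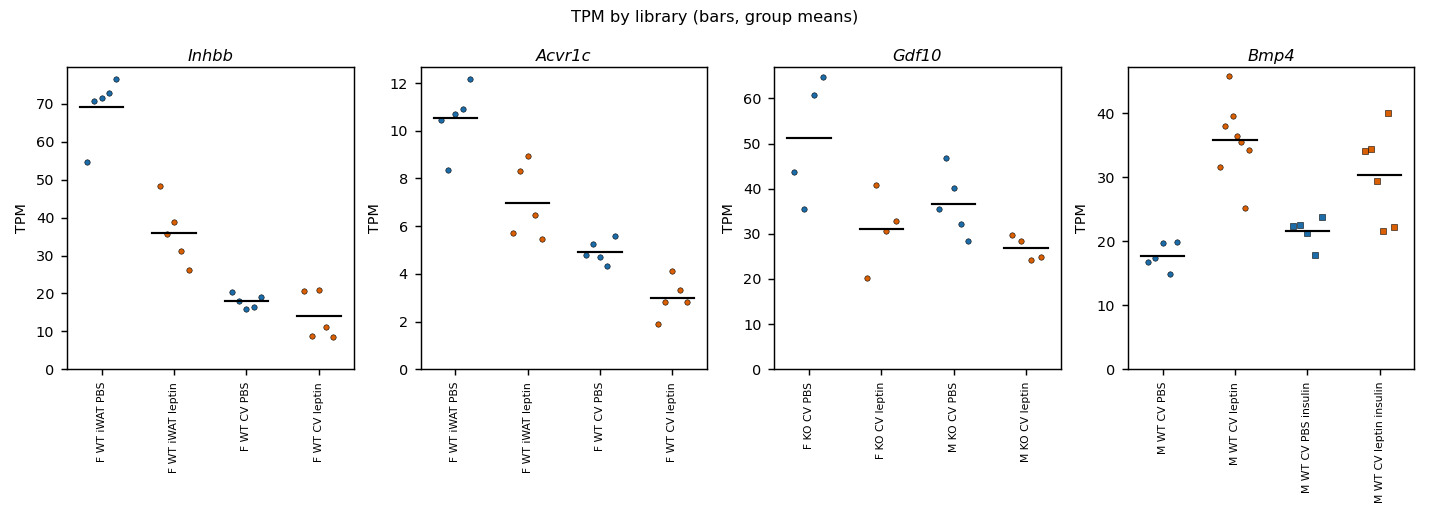
TPM (y axes, linear from 0) of Inhbb and Acvr1c in female WT iWAT and CV, of Gdf10 in cKO CV (labelled KO) and of Bmp4 in male WT CV without and with insulin (x axes), with 1 point per library, bars at group means, PBS in blue, leptin in orange and insulin as squares. Inhbb in iWAT lay at 26.1 to 48.4 TPM with leptin, below all 5 PBS libraries.

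Insulin pellets were given to test whether raised insulin alters the leptin response in male WT CV. With PBS, no member was called with insulin against no insulin (edgeR). Of all genes 0% were, with 976 at an unadjusted p below 0.05 and 4 called by DESeq2. The only member at an unadjusted p below 0.05 was *Grem1*, at 13.3, 12.7, 24.3, 14.7 and 18.9 TPM without and 20.8, 31.7, 26.9, 18.3 and 27.8 TPM with insulin (log2 fold change 0.49, edgeR adjusted p = 0.712). *Bmp2* lay above all PBS mice in all 5 mice with insulin, 8.49 to 11.5 against 7.39 to 8.38 TPM, with a log2 fold change of 0.15 (edgeR adjusted p = 0.874).

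Among leptin mice, insulin against no insulin called no member, where 0.363% of all genes were called. *Acvr1c* was at 2.01 to 4.64 TPM (median 3.27, n = 6) with leptin and insulin against 2.06 to 2.92 TPM (n = 8) with leptin alone, a log2 fold change of 0.42 (SE 0.135). *Bmp4* was at 21.6 to 40.0 TPM against 25.2 to 45.7 TPM, a log2 fold change of -0.24 (SE 0.121). These share the leptin mice of the comparison that chose both genes and carry no p-value. In the 11 mice with insulin, leptin against PBS called no member, where 0.558% of all genes were called. *Bmp4* was at 22.3, 22.6, 21.3, 17.9 and 23.8 TPM with PBS and insulin and at 21.6 to 40.0 TPM (median 31.7, n = 6) with leptin and insulin, a log2 fold change of 0.54 (SE 0.137), given like that of *Acvr1c* without a p-value, since leptin in CV chose both. With all libraries *Bmp4* did not meet the rule for a call. It did in 3 of 11 fits with 1 library left out. These lacked leptin and insulin replicate 3, 4 or 6, at log2 fold changes of 0.55, 0.59 and 0.61. All 5 PBS mice but only 3 of the 6 leptin mice were of the 300s series, and among these the differences of mean log2(TPM + 0.1) were 0.60 for *Bmp4*, -0.14 for *Acvr1c*, -0.31 for *Inhba* and -0.19 for *Bmp6*. The other 3 leptin mice had no PBS mouse in their series, so leptin and series are partly mixed in the pooled values.

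*Acvr1c* in the same mice was at 3.54 to 4.19 TPM with PBS and 2.01 to 4.64 TPM with leptin, a log2 fold change of -0.22 (SE 0.150). The adipocyte markers summed to 4766 to 7905 TPM with PBS and insulin and to 3229 to 8743 TPM with leptin and insulin. *Inhba* (-0.60), *Bmp2* (-0.32), *Bmp6* (-0.29) and *Fst* (0.30) had unadjusted p-values below 0.05 and adjusted ones of 0.127 to 0.279 (edgeR). In the same comparison 2312 of all 14873 genes had an unadjusted p below 0.05. Of the other pathway genes *Pmepa1* fell, from 32.9 ± 2.80 to 19.2 ± 4.53 TPM (SD, n = 5 and 6).

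**Figure D4:**
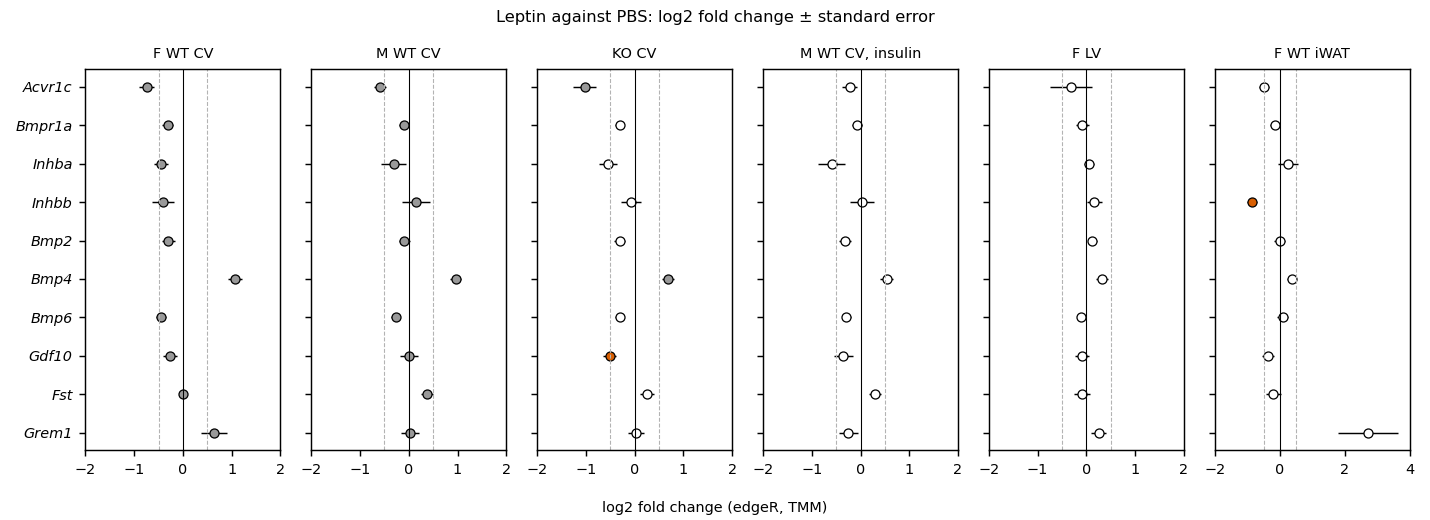
Log2 fold change of leptin against PBS (x axes, edgeR after TMM, bars 1 standard error) for each gene (y axis) in 6 comparisons. Orange marks genes called by the rule, open circles genes not called, and grey the values known when the genes were chosen, with no call shown. In the panel with insulin, Acvr1c and Bmp4 are drawn as open circles, but their values are a description. Dashed lines stand at the fold limit of 0.5. Outside CV, Inhbb in iWAT is the 1 orange point.

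The genotype comparison asked whether these genes change when marrow adipocytes lack ATGL, and none of the 10 was called. In CV with PBS, cKO against WT with sex as a covariate called 0.114% of all genes. The 5400s series of mouse numbers held only cKO mice, so genotype and series are partly mixed. With the series in the fit, 83 genes were called in place of 17, and no member. *Grem1* had the largest log2 fold change, 0.39 (SE 0.139, edgeR adjusted p = 0.379), at 22.6 to 30.1 TPM in cKO and 13.8 to 22.2 TPM in WT females, without overlap, and at 15.1 to 29.0 and 12.7 to 24.3 TPM in males. *Bmp4* had 0.17 (SE 0.0587, edgeR adjusted p = 0.358). *Acvr1c* had -0.04 (SE 0.127, edgeR adjusted p = 0.951). In female LV, cKO against WT called no gene at all (0% of all genes), with 388 at an unadjusted p below 0.05 and 14 called by DESeq2. *Gdf10* was at 2.49, 2.74, 3.69 and 2.99 TPM in cKO LV and at 1.78, 2.35, 2.01, 2.10 and 2.41 TPM in WT LV, without overlap. Its log2 fold change of 0.56 (SE 0.136) had an adjusted p = 1 from edgeR and 0.121 from DESeq2.

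Between the sexes, no member was called in WT CV with PBS, where 7.96% of all genes were called, but *Fst*, *Bmp4* and *Bmp6* passed the adjusted threshold below the fold limit. With no fold limit, 3917 of all 14873 genes passed that threshold. *Fst* was at 24.2 to 29.6 TPM in females and 15.3 to 18.6 TPM in males. *Bmp4* was at 23.0 to 29.7 and 14.9 to 19.8 TPM, and *Bmp6* at 15.1 to 20 and 9.44 to 13 TPM. The log2 fold changes of males against females were -0.47, -0.42 and -0.35 (adjusted p = 0.00144, 0.00542 and 0.0295 from edgeR). *Fst* was called without female replicate 1 (-0.51) or male replicate 2 (-0.53). On the TPM scale, where the median of all genes was -0.23, they were -0.71, -0.66 and -0.59, and these 3 and *Gdf10* (-0.59) were called by limma. There 140 genes were higher and 2183 lower in males, against 520 and 664 after TMM. Skeletal muscle markers summed to 38844 to 46383 TPM in males and 17392 to 38157 TPM in females, and all 6 osteoblast and osteocyte markers were lower in males, at 779 to 1976 against 2367 to 6415 TPM in sum. Their part in these values was not tested. Of the other pathway genes, *Mstn* was higher in males (log2 fold change 0.94), and *Bmp3* (-0.86), *Bmp8a* (-0.80), *Gdf3* (-2.09), *Smad7* (-0.63) and *Ltbp2* (-0.80) were lower.

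Genes with the most similar pattern were found over the means of the 16 groups, as the smallest root mean square difference between centred values of log2(TPM + 0.1). The points share libraries and are no independent samples. Nearest to *Acvr1c*, whose own values spread by 2.19, were *B3galt2* (0.220), *Wdr93* and *Gprc5b*. Nearest to *Bmp4*, which spread by 1.57, were *Gpr176* (0.266), *Pappa2* and *Tspan11*. Nearest to *Inhbb*, which spread by 1.90, were *C130074G19Rik* (0.203), *Nos3* and *Pxdn*, and to *Gdf10*, which spread by 1.62, *Synpo* (0.199), *Zfp651* and *Col23a1*. *Bmpr1a* lay nearest to *Zfyve9* (0.0970), *Frmd6* and *Etv1*, *Fst* to *Ston1* (0.159), *Trp53i11* and *Stab1*, and *Bmp2* to *Golm2* (0.138), *D430041D05Rik* and *Disp1*. *Bmp6* lay nearest to *Lzts3* (0.111), *Arhgap21* and *Zmiz1*, *Grem1* to *Pax1* (0.349), *Notum* and *Foxd1*, and *Inhba* to *Smim5* (0.270), *St3gal5* and *Cd33*.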

How the data were processed

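RNA of CV (51 mice), LV (18) and iWAT (10) was analysed in 79 libraries. The authors enriched RNA by oligo dT, sequenced 100 bp paired reads, filtered them with SOAPnuke and aligned them to GRCm38.p6 with HISAT and Bowtie2, and the counting tool is not given in the sources used here. The authors deposited estimated counts per gene, without normalization, and TPM values of the same libraries. Of the counts, 51 values that were not whole were rounded.

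Groups were compared on counts in edgeR 4.0.16 (R 4.3.3), by its quasi-likelihood F test after TMM normalization, over the 14873 genes averaging 0.4 TPM or more. P-values were adjusted by Benjamini-Hochberg, and genes were called at an adjusted p below 0.05 with a log2 fold change of 0.5 or more in either direction. Standard errors were derived from the F statistic. Fits held the groups compared, with sex or genotype as a covariate where both were present. The 3 tissues shared 1 fit, as did the 4 male WT CV groups with and without insulin for comparisons with insulin. Alternatives were DESeq2 1.42.0, RLE size factors, limma 3.58.1 on log2(TPM + 1) and log2(TPM + 0.1), other filters, covariates and blocks, and leaving out each library. On simulated data with 200 genes changed by a log2 fold of 1, 165 were recovered with 5 false calls for leptin in female WT CV and 121 with 2 for leptin in iWAT.

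The members, pathway lists and marker lists were chosen with earlier results of these data known. Named genes were the 10 members, the 3 genes nearest in pattern to each, other pathway genes called in leptin, genotype or insulin comparisons, and for tissues the 2 called genes of each list with the largest rise or fall, of which the leading ones are given. Same-numbered samples of CV, LV and iWAT come from the same mouse. Same-numbered samples of other groups are different mice, and only those of cKO and WT LV deviated together in every pair (r = 0.107 to 0.32). That block called 1 gene in place of 0 and no member. No library was a copy of another of its group (chi-square per gene of at least 11.1 over 163 pairs). P-values measure the spread between libraries, which come from different mice except where tissues are compared.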

Additional observations from a re-analysis of the deposited data

Results flagged for a closer look

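Of 160 sets of values, each 1 gene in 1 group, 10 held a library far from the rest by Dixon's test, where chance flags about 1 in 20. In female WT iWAT with PBS, *Inhbb* was at 54.7 TPM in replicate 1 against 70.8 to 76.5 TPM in the others, *Gdf10* at 18.1 TPM in replicate 2 against 10.1 to 12.2, and *Bmp2* at 3.22 TPM in replicate 3 against 2.16 to 2.25. In female WT CV with PBS, *Bmp4* was at 23.0 TPM in replicate 2 against 28.9 to 29.7, and *Bmp2* at 8.03 TPM in replicate 3 against 10.8 to 11.8. With leptin, *Inhba* was at 1.54 TPM in replicate 2 of female WT CV against 2.41 to 2.60, and *Inhbb* at 31.1 TPM in replicate 8 of male WT CV against 7.68 to 18.4. In male WT CV with PBS and insulin, *Fst* was at 20.2 TPM in replicate 4 against 15.5 to 16.7, and *Bmp2* at 11.5 TPM in replicate 1 against 8.49 to 9.33. In female cKO LV with PBS, *Inhba* was at 2.99 TPM in replicate 4 against 3.91 to 4.08.

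The leptin effect on *Inhbb* differed between iWAT and LV of the same mice, with an interaction of -0.98 in log2 units (SE 0.280, edgeR adjusted p = 0.0190). In CV of these mice the means of *Inhbb* were 18 TPM with PBS and 14 TPM with leptin, and iWAT against CV was not tested. The test of iWAT against LV was chosen after the values were seen. It held no term for the mouse, so its p-value takes the tissues of a mouse as independent.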

How the results depend on the processing

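Of the values of single members under the alternatives that kept all libraries, 1195 kept their side of the threshold, 12 lost a call, 18 gained one in the same direction and 4 turned. The 4 are *Bmp2* and *Bmp4* in iWAT against LV, at 0.53 and 0.51 with limma on log2(TPM + 1) and 0.79 and 0.66 on log2(TPM + 0.1). With 1 library left out, 1682 kept their side, 15 lost and 13 gained a call, and none turned.

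The number of members called moved as follows. In the main fits of leptin in CV, the members called were *Acvr1c* and *Bmp4* in WT mice, and these and *Gdf10* in cKO mice. *Acvr1c* and *Bmp4* were chosen on leptin in CV, so their part in these counts is a description. In female WT CV with leptin it was 3 in place of 2 with no fold limit. In male WT CV with leptin it was 1 in place of 2 with limma on either TPM scale and with the replicate block. In cKO CV it was 0 in females alone, 1 in males alone, 2 with the muscle markers and 4 with the mouse number series as a covariate, in place of 3. With limma on either scale it was 9 in place of 10 in CV against LV and 10 in place of 8 in iWAT against LV. In iWAT with leptin it was 2 in place of 1 with no fold limit, RLE size factors, limma on either scale, the replicate block or a covariate for the mouse number series, and 3 with DESeq2. In leptin with insulin against PBS with insulin it was 1 (*Bmp4*, whose values are a description) in place of 0 with DESeq2 and with the replicate block. Between the sexes it was 3 with no fold limit and 4 with limma on either scale, in place of 0. With each library left out in turn it ranged from 1 to 3 in female and 1 to 2 in male WT CV, from 2 to 4 in cKO CV, from 1 to 3 in iWAT, from 0 to 1 in leptin with insulin against PBS with insulin and from 0 to 1 between the sexes. The replicate block moved no other number of members called by over 1.5 times. It left 2 of 3 in cKO CV, where *Acvr1c* lost its call. Same-numbered leptin and PBS mice did not deviate together in every pair of any comparison. *Grem1* could not be tested in iWAT with edgeR's filterByExpr, which removed it.

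Depth limits *Acvr1c* in LV (2 to 21 counts per library) and *Grem1* in iWAT with PBS (0 to 6 counts).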
